A study of Mus musculus with 45 samples.

Results

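Hippocampal RNA from 4-month-old 5xFAD mice was set against RNA from 4-month-old mice without the 5xFAD transgenes, all of them without Csf1r-Cre. The libraries were chosen by their titles, which gave 5 5xFAD and 8 control libraries, 13 of the 45 libraries in the series. Both groups were on the C57BL/6 strain and carried floxed Apoe alleles, written Apoe(fl/fl) in the labels, with no Cre to recombine them, so the Apoe locus was floxed but not deleted by design in either group. 5xFAD mice carry human transgenes, APP among them, with mutations that cause familial Alzheimer's disease, driven by the Thy1 promoter, which is active in neurons. The wider study deletes Apoe from Csf1r-expressing cells and samples mice aged 4 and 12 months, and the present libraries are its younger mice with intact Apoe. The labels give no sex and do not state whether the numbered libraries are different animals. The p-values below therefore rest on variation among libraries, part of which may be technical. Unless stated otherwise, the spread was estimated over all 45 libraries in 8 groups, not over these 13 alone.

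The 5xFAD transgenes lead to amyloid plaques that form early in life. Microglia, the resident macrophages of the brain, gather around plaques and switch on a set of genes that includes Cst7, Itgax and Clec7a, while genes of the resting state such as P2ry12 tend to decline in the same cells. Part of this switch depends on the lipid receptor Trem2 and its signalling partner Tyrobp. In whole hippocampus these genes are read from a minority of cells, and fewer cells of a type cannot be told apart from less RNA per cell.

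Expression was read as TPM, the authors' unit, which scales reads for gene length and library total. The 13 libraries held 15243080 to 20646111 reads in genes, as recovered from the steps between low TPM values. Of the table's genes, 18659 had at least 0.5 TPM in at least 3 of the 45 libraries and were tested with limma on log2(TPM + 0.5) in a two-sided test. P-values were adjusted over all genes tested by the Benjamini-Hochberg method, and a gene was called at an adjusted p under 0.05. Fold changes on this scale are smaller than those of TPM where TPM is low. Of the hippocampal markers, Prox1, a transcription factor of dentate granule cells, was at 2.02 to 7.25 TPM in 5xFAD libraries and 1.76 to 18.8 TPM in control libraries. Spink8, a gene of CA1 pyramidal cells, was at 25.4 to 58.6 TPM in 5xFAD libraries and 0.755 to 34.0 TPM in control libraries, the lowest in control replicate 8. Ddx3y, a Y-linked gene, was at 12.3 and 14.7 TPM in 2 of the 5 5xFAD libraries and at 9.36 to 27.7 TPM in 5 of the 8 control libraries, and at 0 to 0.0276 TPM in the others.

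Of the 18659 genes, 2 were called higher in 5xFAD (0.0107%) and 0 lower (0.0%). Without adjustment, 189 genes (1.01%) were higher at a p under 0.05 and 1570 (8.41%) were lower in the same limma fit. All 5 5xFAD libraries lay above all 8 control libraries for 16 genes (0.0857%) and below them for 31 (0.166%). The median log2 fold change of all genes tested was -0.23, so lower values were the background here. It was 0.00 after median-of-ratios scaling, which divides each library by the median ratio of its genes to their geometric mean over libraries, and fold changes on that scale are given below as rescaled. Rescaled, 666 genes (3.58%) were higher and 801 (4.31%) lower at an unadjusted p under 0.05, and 5 were called higher (0.0269%). These were Ccl6, Cst7, Ccl3, Clec7a and Itgax.

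Levels fell most with gene length in 5xFAD replicates 3 and 4. The median log2 fold change of all genes was -0.136 without replicate 3 and -0.218 without replicate 4. Among the 1928 well expressed genes in the longest of 4 length classes (2448 to 11717 bases), the median level relative to the control mean was -1.12 on the log2 scale in 5xFAD replicate 3 and -0.76 in replicate 4, against -0.60 to 0.39 in the control libraries. The other 5xFAD libraries were at -0.27, -0.16 and -0.05. Among the 1536 genes of the shortest class (56 to 991 bases), 5xFAD replicate 3 was at -0.15 and replicate 4 at 0.17, and control libraries were at -0.33 to 0.21. With a trend on length removed from every library, an alternative chosen after the data were seen, the median of all genes was -0.0035, 686 genes were higher and 659 lower at an unadjusted p under 0.05, and the 5 genes called were the same 5 as after rescaling. Why these libraries differ by length was not tested. Leaving out Gm23935, an abundant transcript described further on, and rescaling TPM gave a median of -0.145 over all genes. In that limma fit 377 genes were higher and 1011 lower at an unadjusted p under 0.05.

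**Figure D1:**
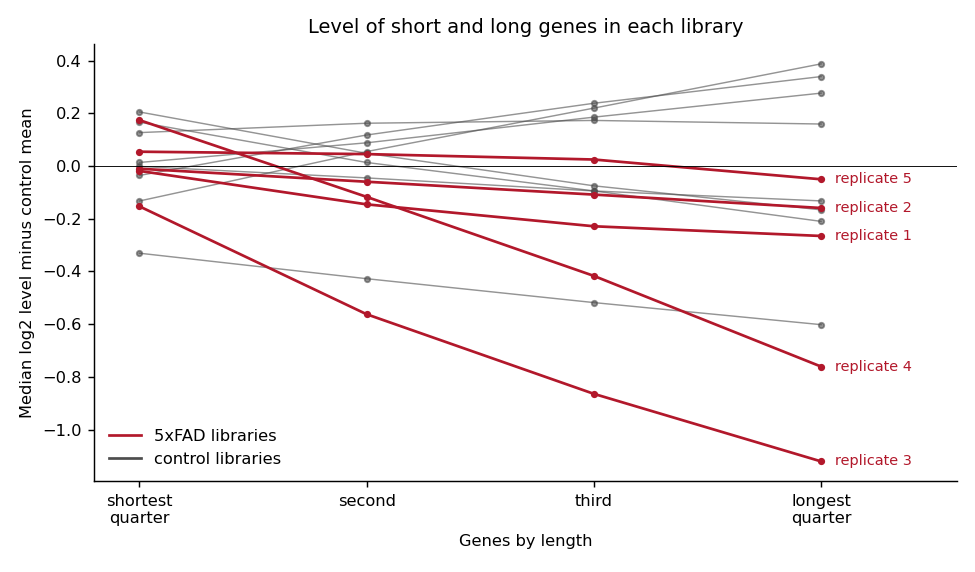
Median log2 level minus the control mean, for well expressed genes in 4 classes of gene length, in each 5xFAD library (red, 5 lines) and each control library (grey, 8 lines). In the longest class 5xFAD replicates 3 and 4 lie at -1.12 and -0.76, below every control library.

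The called genes code for a secreted inhibitor and a secreted chemokine. Cst7 (ENSMUSG00000068129, chr2:150570415-150578944, mm10) codes for cystatin F, an inhibitor of cysteine proteases that myeloid cells carry in their endolysosomes. Cst7 was at 2.13, 2.74, 4.89, 20.2 and 6.86 TPM in 5xFAD replicates 1 to 5, against a lowest of 0, a median of 0.211 and a highest of 0.956 TPM in the control libraries. These values rested on 30 to 321 reads in 5xFAD libraries and 0 to 12 reads in control libraries. The groups did not overlap, and 5xFAD replicate 4 stood above the other 5xFAD libraries. Cst7 rose by 2.94 ± 0.45 on the log2 scale (SE, n = 5 and 8, limma adjusted p = 0.000746).

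Ccl6 (ENSMUSG00000018927, chr11:83587882-83593087, mm10) codes for a CC chemokine of myeloid cells. It was at 13.2, 17.5, 66.5, 96.4 and 29.3 TPM in 5xFAD replicates 1 to 5, against 2.55, 5.44 and 6.34 TPM as the lowest, median and highest control libraries. Again no library of one group reached the other, and 5xFAD replicates 3 and 4 were the highest. Ccl6 rose by 2.70 ± 0.39 on the log2 scale (SE, n = 5 and 8, limma adjusted p = 0.00034). With 5xFAD replicate 1 left out 7 genes were called, Ccl6, Cst7, Ccl3, Clec7a, Itgax, Fcgr3 and Ly86, and in fits on the 13 libraries alone or on the 4-month libraries alone 0 were called (smallest adjusted p 0.122 and 0.0515). With 5xFAD replicates 3 and 4 left out, a choice made after the data were seen, Cst7 was still 2.38 and Ccl6 1.88 higher on the log2 scale, but no gene was called, and both had an adjusted p of 0.336. In that limma fit 124 genes were higher and 129 lower at an unadjusted p under 0.05.

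The called genes and a pair of activity-dependent genes described further on are shown with their proximal promoters, as the stretch next to the start that a shared regulator could read. Each is the 250 bases before the gene start, 5' to 3' on the gene's strand, from RefSeq on GRCm38.p6, the assembly behind mm10. Capitals in Cst7 and Ccl6 mark AGGAAGT or its reverse complement ACTTCCT, the core bound by ETS factors such as the myeloid regulator PU.1. Capitals in Fos and Npas4 mark TGACGT or its reverse complement ACGTCA, part of the element bound by CREB, which responds to neuronal activity.
Cst7, chr2:150570165-150570414, + strand: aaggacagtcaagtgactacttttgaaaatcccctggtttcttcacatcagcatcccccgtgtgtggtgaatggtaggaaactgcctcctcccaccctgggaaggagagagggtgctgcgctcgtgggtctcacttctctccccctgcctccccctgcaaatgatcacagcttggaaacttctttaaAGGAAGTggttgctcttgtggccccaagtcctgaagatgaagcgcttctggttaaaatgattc
Ccl6, chr11:83593088-83593337, - strand: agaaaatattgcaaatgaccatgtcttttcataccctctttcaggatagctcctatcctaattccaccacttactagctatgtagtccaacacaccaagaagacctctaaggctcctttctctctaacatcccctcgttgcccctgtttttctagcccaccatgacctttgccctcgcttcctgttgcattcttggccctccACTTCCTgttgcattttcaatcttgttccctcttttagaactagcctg
Fos, chr12:85473640-85473889, + strand: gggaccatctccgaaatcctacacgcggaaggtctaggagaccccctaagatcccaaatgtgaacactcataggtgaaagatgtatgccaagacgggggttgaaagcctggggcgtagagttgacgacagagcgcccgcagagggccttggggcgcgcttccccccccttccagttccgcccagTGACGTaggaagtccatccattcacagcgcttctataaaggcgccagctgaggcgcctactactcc
Npas4, chr19:4989972-4990221, - strand: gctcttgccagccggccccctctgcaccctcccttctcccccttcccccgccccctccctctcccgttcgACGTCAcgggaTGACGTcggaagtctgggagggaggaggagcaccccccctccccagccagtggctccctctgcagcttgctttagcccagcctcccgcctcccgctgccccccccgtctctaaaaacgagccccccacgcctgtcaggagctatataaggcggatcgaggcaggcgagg
Cst7 held 1 match, at -63 to -57 from the gene start, and Ccl6 held 1, at -48 to -42. Of the 32851 windows of this length in the table, 7.69% held this motif on either strand. The Fos window held AGGAAGT as well, at -60 to -54, shown in lower case, so the motif is not particular to the called genes. Fos held 1 match of TGACGT at -66 to -61 and Npas4 held 2, starting at -180 and -169, where 6.47% of all windows held at least 1. Cst7 and Ccl6 held 0 matches of TGACGT in these windows. A match is a string of letters and not a site shown to be bound.

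The called genes belong to a list of genes that microglia switch on near plaques. Of the 36 genes on this list 35 were tested, and Lilrb4a was below the filter. Of the 35, 2 were called and 11 were higher at an unadjusted p under 0.05 with 0 lower, beside 1.01% and 8.41% over all genes. Their median log2 fold change was 0.11, beside -0.23 over all genes, and rescaled it was 0.41, beside 0.00. As deposited 21 of them lay above 0 and 14 below, and rescaled 29 lay above and 6 below. Over all genes 77.4% lay below 0 as deposited and 49.6% rescaled. The list was drawn up with earlier results of these data known, so its direction is not independent evidence.

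Itgax codes for the integrin CD11c, a surface marker of plaque microglia. It was at 0.591, 0.833, 1.19, 5.41 and 5.97 TPM in 5xFAD replicates 1 to 5, against 0, 0.335 and 0.530 TPM as the lowest, median and highest control libraries, with a log2 fold change of 1.72 ± 0.38 (SE, limma adjusted p = 0.14; rescaled 1.90, adjusted p = 0.0292). The groups did not overlap, with 5xFAD replicates 4 and 5 far above the other 3.

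Clec7a codes for dectin-1, a pattern recognition receptor. It was at 1.42, 1.55, 3.53, 10.4 and 6.60 TPM in 5xFAD replicates 1 to 5, against 0.0924, 0.557 and 1.22 TPM as the lowest, median and highest control libraries. The groups did not overlap, at a log2 fold change of 2.05 ± 0.43 (SE, limma adjusted p = 0.125; rescaled 2.27, adjusted p = 0.0292).

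Tyrobp, the adaptor through which Trem2 signals, was at 55.5, 65.0, 72.0, 111 and 80.5 TPM in 5xFAD replicates 1 to 5, against 36.8, 45.5 and 53.0 TPM as the lowest, median and highest control libraries. These groups did not overlap either, at a log2 fold change of 0.72 ± 0.20 (SE, limma adjusted p = 0.468). Trem2 itself was at 15.3, 21.7, 28.8, 57.9 and 31.3 TPM in 5xFAD replicates 1 to 5, against 13.5, 16.5 and 21.4 TPM in control libraries as lowest, median and highest. Only 5xFAD replicate 1 lay inside the control range for Trem2, and its log2 fold change was 0.74 ± 0.24 (SE, limma adjusted p = 0.468).

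The remaining list members with an unadjusted p under 0.05 were Ccl3, Ccl4, Cd52, Ch25h and Cd68. Cd52, which codes for a small surface glycoprotein of immune cells, was at 9.61 to 42.4 TPM in 5xFAD and 4.46 to 10.8 TPM in control libraries (log2 fold change 1.60 ± 0.50, SE). Ch25h, whose product makes 25-hydroxycholesterol, had a log2 fold change of 0.82 ± 0.35, and Cd68, a lysosomal marker of macrophages, one of 0.61 ± 0.28 (SE). Among these 11 genes replicate 1 was the lowest 5xFAD library in 11 and replicate 4 the highest in 10, with replicate 5 the highest for Itgax. Over all 35 genes the order was less uniform: replicate 3 was the lowest in 17 and replicate 1 in 15, and replicate 4 was the highest in 19 and replicate 5 in 9. Spp1, which codes for osteopontin, was at 4.08, 4.89, 4.59, 12.4 and 8.93 TPM in 5xFAD libraries and 3.01, 9.03 and 53.5 TPM as the lowest, median and highest control libraries, with the groups mixed.

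**Figure D2:**
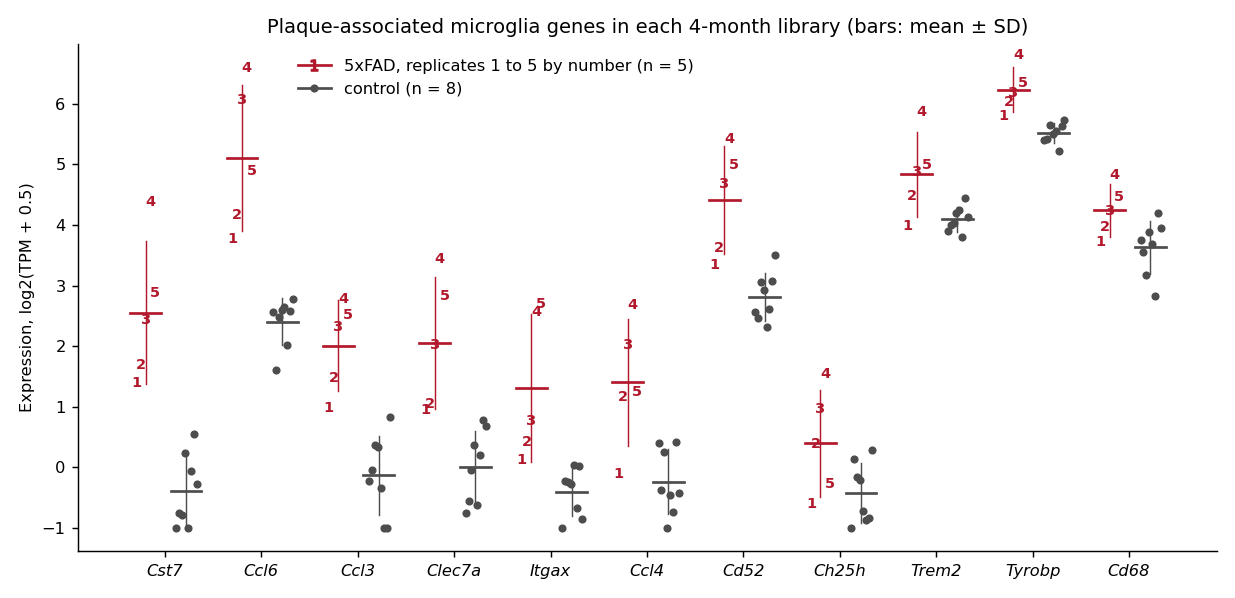
Expression as log2(TPM + 0.5) of the 11 plaque-associated genes with an unadjusted p under 0.05 in each 5xFAD library (red replicate numbers, n = 5) and each control library (grey points, n = 8), with mean and SD. For Cst7, Ccl6, Ccl3, Clec7a, Itgax and Tyrobp the groups do not overlap, and replicate 1 is the lowest 5xFAD library throughout.

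Chemokines form a family of secreted attractants, and 5 of the 15 CC chemokines tested were higher at an unadjusted p under 0.05, with 0 lower (1.01% and 8.41% over all genes). All 5 lie in 1 stretch of chromosome 11, Ccl5 (83525778-83530518), Ccl9 (83572919-83578636), Ccl6, Ccl3 (83647844-83649355) and Ccl4 (83662584-83664683), and they were the only genes tested from the start of Ccl5 to the end of Ccl4. Ccl3, a ligand of Ccr1, was at 1.46, 2.29, 4.49, 6.33 and 5.19 TPM in 5xFAD replicates 1 to 5, against 0, 0.414 and 1.28 TPM as the lowest, median and highest control libraries. These groups did not overlap (log2 fold change 2.14 ± 0.44, SE, limma adjusted p = 0.113; rescaled 2.38, adjusted p = 0.0292).

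Ccl4, an attractant of monocytes and T cells, was at 0.424, 1.74, 3.56, 5.94 and 1.88 TPM in 5xFAD replicates 1 to 5, against 0, 0.260 and 0.833 TPM as the lowest, median and highest control libraries, so that 5xFAD replicate 1 lay inside the control range (log2 fold change 1.64 ± 0.44, SE). Ccl9 had a log2 fold change of 1.11 ± 0.34 and Ccl5 one of 0.76 ± 0.36 (SE). Ccl12, from the separate cluster that holds Ccl2, was at 1.72 to 5.38 TPM in 5xFAD and 0.709 to 2.72 TPM in control libraries, at 0.83 ± 0.43 (SE, unadjusted p = 0.0604). Neighbouring chemokine genes are similar in sequence, and a gene on the other strand spans Ccl6. Whether reads were counted by strand or when they fit several places is not given in the sources used here.

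Among single genes outside the plaque list, Slc11a1, a metal ion transporter of the phagosome, was at 5.66, 5.95, 9.46, 21.5 and 9.18 TPM in 5xFAD replicates 1 to 5, against 2.21, 3.91 and 5.20 TPM as the lowest, median and highest control libraries, with no overlap (log2 fold change 1.27 ± 0.29, SE, limma adjusted p = 0.208). Fcer1g, the signalling chain of several Fc receptors, was at 43.8 to 132 TPM in 5xFAD and 31.7 to 42.3 TPM in control libraries (0.88 ± 0.25, SE). Cd180, a Toll-like receptor homologue, was at 3.21 to 6.23 TPM in 5xFAD and 1.49 to 3.20 TPM in control libraries, apart by a small margin (0.82 ± 0.31, SE). Cxcl10, an interferon-induced chemokine, was at 2.03 to 2.97 TPM in 5xFAD replicates 2 to 5 and 0.167 TPM in replicate 1, against 0 to 0.789 TPM in control libraries (1.33 ± 0.45, SE).

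Genes of homeostatic microglia lay on both sides of the control level, 13 above and 6 below, at log2 fold changes of -0.63 to 0.63. Of 19 tested, 0 were called, 3 were higher at an unadjusted p under 0.05 and 0 lower (1.01% and 8.41% over all genes), with a median log2 fold change of 0.09. Rescaled, 9 were higher (3.58% over all genes) and 0 lower, 17 lay above 0 and the median was 0.37, and with the length trend removed 9 were higher at a median of 0.42. Gpr34, a lysophospholipid receptor, was at 12.3, 16.5, 19.7, 30.4 and 17.2 TPM in 5xFAD replicates 1 to 5, against 9.62, 11.9 and 13.2 TPM as the lowest, median and highest control libraries (0.63 ± 0.22, SE). Only 5xFAD replicate 1 lay inside the control range. Olfml3, which codes for a secreted protein, was at 0.55 ± 0.21 on the log2 scale (SE).

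Csf1r, the receptor that microglia need to survive, was at 17.5 to 41.8 TPM in 5xFAD and 16.3 to 40.9 TPM in control libraries, a log2 fold change of 0.02 ± 0.31 (SE, limma adjusted p = 0.985; rescaled 0.31). Aif1, which codes for the microglial marker Iba1, was at 0.43 ± 0.22, Fcrls at 0.42 ± 0.26 and Sall1, a microglial transcription factor, at -0.62 ± 0.35 (SE). The summed level of the 19 genes was 598 to 1121 TPM in 5xFAD and 641 to 863 TPM in control libraries.

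The counts for other immune lists depended on the scaling, beside 1.01% higher and 8.41% lower over all genes as deposited and 3.58% and 4.31% rescaled. Of 13 complement genes 2 were higher and 0 lower, C1qa, a chain of the initiating complex, at 0.55 ± 0.20 and C3ar1, the C3a receptor, at 0.68 ± 0.24 on the log2 scale (SE). Of 15 class I genes 1 was higher, Psmb8, a subunit of the immunoproteasome, at 0.63 ± 0.28 (SE). Of 25 interferon response genes 1 was higher, Cxcl10, and of 6 class II genes 0 passed in either direction on the deposited scale. Of 20 microglial genes linked to Alzheimer's disease risk, Tyrobp and Trem2 were higher and Sorl1, a sorting receptor for APP, lower (-0.90 ± 0.41, SE). Rescaled, 4 complement, 3 class I, 5 interferon response, 2 class II and 6 Alzheimer's risk genes were higher at an unadjusted p under 0.05. No gene of these lists was called on either scale.

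Neither App nor Thy1, the genes tied to the transgenes, was called, and their values lay on opposite sides of 0. App, which the table counts at the mouse locus, was at 455, 443, 170, 186 and 465 TPM in 5xFAD replicates 1 to 5, against 304, 587 and 853 TPM as the lowest, median and highest control libraries (-0.87 ± 0.43, SE, limma adjusted p = 0.468; rescaled -0.56, adjusted p = 0.562). The low 5xFAD libraries for App were replicates 3 and 4, those in which long genes were low, and without them its log2 fold change was -0.33. Human transgene reads were not counted separately, so App checks the genotype poorly.

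Thy1, whose promoter drives the transgenes, was at 1474, 1900, 1019, 1325 and 1233 TPM in 5xFAD replicates 1 to 5, against 651, 935 and 1675 TPM as the lowest, median and highest control libraries (0.48 ± 0.25, SE, limma adjusted p = 0.468; rescaled 0.78, adjusted p = 0.218). Control replicate 5 was the only control library above the 5xFAD median of 1325 TPM. Apoe, intact in both groups, was at 3063, 2841, 1945, 2564 and 3706 TPM in 5xFAD replicates 1 to 5, against 1979, 3501 and 4027 TPM as the lowest, median and highest control libraries. The Apoe groups overlapped throughout (-0.23 ± 0.20, SE, limma adjusted p = 0.545; rescaled 0.07).

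Immediate early genes, which neurons transcribe within minutes of firing, lay lower. Of 25 tested, 0 were called in limma, 12 were lower at an unadjusted p under 0.05 and 0 higher (8.41% and 1.01% over all genes), and 24 lay below 0. Their median log2 fold change was -0.77, beside -0.23 over all genes. Rescaled, it was -0.48 with 9 lower (4.31% over all genes), and with the length trend removed it was -0.41 with 9 lower.

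Npas4, a transcription factor induced by calcium entry, was at 0.684, 0.597, 0.823, 0.133 and 0.246 TPM in 5xFAD replicates 1 to 5, against 0.332, 3.48 and 9.77 TPM as the lowest, median and highest control libraries (-1.87 ± 0.62, SE). Control replicate 6 lay inside the 5xFAD range and the other control libraries above it. Arc, which regulates AMPA receptor traffic, was at 8.39, 10.6, 10.1, 6.19 and 10.7 TPM in 5xFAD replicates 1 to 5, against 10.3, 30.4 and 94.0 TPM as the lowest, median and highest control libraries (-1.70 ± 0.62, SE). Here too control replicate 6 was the only overlap.

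Egr1, a zinc finger transcription factor, was at 30.4, 22.3, 28.5, 15.7 and 28.7 TPM in 5xFAD replicates 1 to 5, against 36.5, 64.8 and 135 TPM as the lowest, median and highest control libraries, with no overlap (-1.41 ± 0.50, SE, limma adjusted p = 0.468). Fos was at 3.85, 4.45, 17.9, 11.4 and 4.21 TPM in 5xFAD replicates 1 to 5, against 11, 22.2 and 68.8 TPM as the lowest, median and highest control libraries (-1.83 ± 0.68, SE). Dusp6, a phosphatase that acts on ERK, was at 18.6 to 26.3 TPM in 5xFAD and 28.4 to 52.4 TPM in control libraries, again with no overlap (-0.51 ± 0.24, SE). Fosb was at -1.21 ± 0.44 and Dusp1 at -1.06 ± 0.41 (SE).

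The 5xFAD libraries spread less for these genes than the control libraries. The median deviation of the 25 genes from the control mean was -0.86, -0.61, -0.74, -0.94 and -0.70 in 5xFAD replicates 1 to 5. Control libraries ran from -0.84 in replicate 6 to 0.83 in replicate 4. Among the controls, replicates 4, 7 and 8 were the highest for immediate early genes. Their summed level of striatum markers was 2707, 4216 and 3821 TPM. In control replicate 6 this sum was 312 TPM, and the lowest control sum, 274 TPM, came from another library. The striatum sum was 191 to 1783 TPM in 5xFAD and 274 to 4216 TPM in control libraries, with a median log2 fold change of -0.53 over 15 genes (rescaled -0.24), and its part in the immediate early gene values was not tested. In Csf1r-Cre mice of the same age, the 5xFAD effect on the immediate early list had a median of -0.08, with 0 genes past an unadjusted p of 0.05 in either direction (3.08% higher and 2.06% lower over all genes). The striatum list had a median of -1.14 in that comparison, beside -0.10 over all genes. At 12 months the median of the immediate early list was -0.50, beside 0.08 over all genes, with 0 genes called, and the striatum list had a median of -1.62 there.

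**Figure D3:**
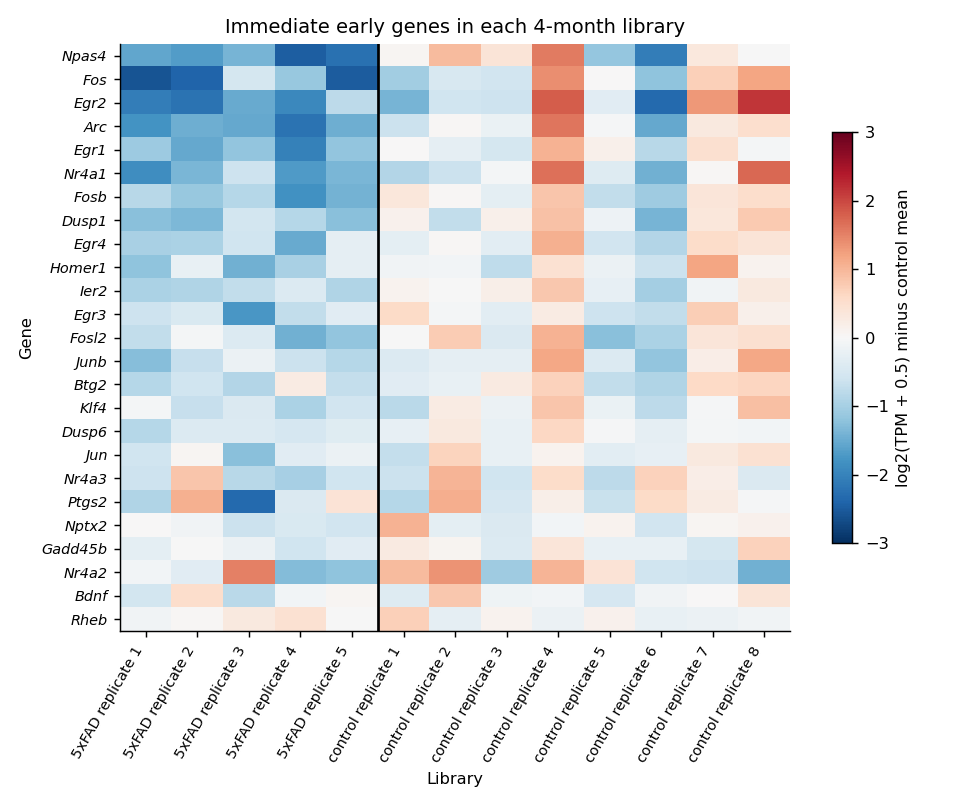
Heat map of the 25 immediate early genes (rows) in the 5 5xFAD libraries and the 8 control libraries (columns), as log2(TPM + 0.5) minus the control mean, blue lower and red higher. The 5xFAD columns are blue for most genes, and control replicate 6 resembles them while control replicates 4, 7 and 8 are the highest.

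Markers of tissue next to the hippocampus were lower in the 5xFAD libraries as well. Of 13 thalamus markers 12 lay below 0, with a median log2 fold change of -1.17 and 5 lower at an unadjusted p under 0.05 (8.41% over all genes), and rescaled the median was -0.90. Ramp3, a receptor activity-modifying protein, was at 25.4, 25.2, 22.3, 17.2 and 23.2 TPM in 5xFAD replicates 1 to 5, against 15.2, 61.4 and 116 TPM as the lowest, median and highest control libraries (-1.38 ± 0.49, SE). Control replicate 8 lay below every 5xFAD library and the rest of the controls above them. Rora, a nuclear receptor, had a log2 fold change of -1.36 ± 0.51 and Plekhg1 one of -1.60 ± 0.56 (SE).

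The summed level of the thalamus markers was 94.5 to 518 TPM in 5xFAD and 149.8 to 675 TPM in control libraries, lowest in 5xFAD replicate 4 and control replicate 1. Among the 10 lowest fold changes with an unadjusted p under 0.01 were Tnnt1 (-1.71 ± 0.62, SE), Rab37 (-1.53 ± 0.51), Adra1b, the alpha-1B adrenergic receptor (-1.42 ± 0.48), Hr, a corepressor of nuclear receptors (-1.28 ± 0.38), and Opn3, an opsin (-1.26 ± 0.37). For Tnnt1 the control libraries alone ran from 2.80 to 46.3 TPM, and 5xFAD libraries from 1.79 to 6.74 TPM. How far differences in dissection enter these values was not tested.

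Lists of other brain cells lay below 0, as did 77.4% of all genes on the deposited scale and 49.6% rescaled. All 16 oligodendrocyte genes were below 0 on both scales (median -0.61, rescaled -0.30), 6 of them lower at an unadjusted p under 0.05 and 2 rescaled (8.41% and 4.31% over all genes). Mobp, a structural protein of myelin, was at 382, 321, 184, 119 and 429 TPM in 5xFAD replicates 1 to 5, against 242, 562 and 736 TPM as the lowest, median and highest control libraries (-0.95 ± 0.46, SE). Bcas1, another gene of myelinating cells among the 6, was at -1.01 ± 0.42 (SE). 5xFAD replicates 3 and 4 were the lowest of the 5 for both.

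All 15 endothelial genes lay below 0, and 13 rescaled (median -0.49, rescaled -0.19), among them Cdh5, the vascular cadherin (-1.23 ± 0.45), the VEGF receptor Flt1 (-1.14 ± 0.46) and the transporter Abcb1a (-1.16 ± 0.45, SE). At an unadjusted p under 0.05, 6 endothelial genes were lower and 5 rescaled (8.41% and 4.31% over all genes). With the length trend removed 5 were lower, at a median of -0.31. All 27 synapse genes lay below 0, and 23 rescaled (median -0.61, rescaled -0.31), 6 at an unadjusted p under 0.05 and 1 rescaled, including the presynaptic scaffold Bsn (-1.23 ± 0.55), the postsynaptic scaffold Shank3 (-1.03 ± 0.47) and Snap25 of the release machinery (-0.56 ± 0.26, SE). With the length trend removed their median was -0.21, 22 were below 0 and 0 had an unadjusted p under 0.05; the median length of these genes was 2996 bases. Of 11 border macrophage markers 11 lay below 0, and 9 rescaled, with Cbr2 at -1.08 ± 0.41 (SE), at a summed 5.82 to 10.7 TPM in 5xFAD and 5.16 to 37.8 TPM in control libraries.

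CA pyramidal cell genes had a median log2 fold change of 0.01 (rescaled 0.30, with 9 of 12 above 0), with Fibcd1 at 0.95 ± 0.46 (SE), and dentate granule cell genes one of -0.36 (rescaled -0.06), with Pdzd2 at -1.22 ± 0.56 (SE). T cell markers (7 tested) summed to 5.51 to 17.3 TPM in 5xFAD and 6.72 to 55.2 TPM in control libraries, with Cd3e, Cd3g, Cd8a and Cd8b1 below the filter. Neutrophil and monocyte markers summed to 1.09 to 8.73 TPM in 5xFAD and 0.511 to 12.1 TPM in control libraries, with Ly6g and Ccr2 below the filter. The part of other cell types in the plaque gene values was not tested beyond these levels.

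**Figure D4:**
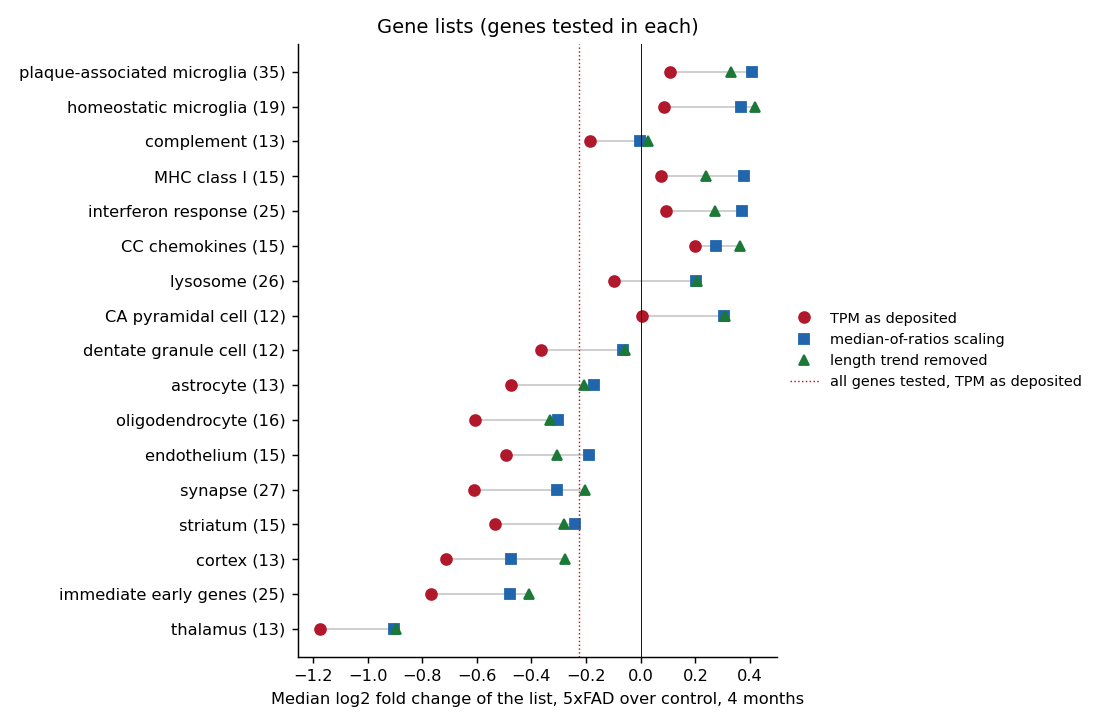
Median log2 fold change of 5xFAD over control for 17 gene lists, with TPM as deposited (red circles), after median-of-ratios scaling (blue squares) and with the length trend removed (green triangles); the number of genes tested is in brackets and the dotted line marks all genes as deposited, at -0.23. The plaque-associated list lies at 0.11, 0.41 and 0.33 and the thalamus list, the lowest in all 3, at -1.17, -0.90 and -0.89.

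One more gene stood out by its size. Lars2, a mitochondrial leucyl-tRNA synthetase, was at 2180, 1652, 4208, 1677 and 1002 TPM in 5xFAD replicates 1 to 5, against 58.8, 803 and 3572 TPM as the lowest, median and highest control libraries (1.74 ± 0.57, SE, limma adjusted p = 0.468). It moved with Gm23935, a predicted microRNA of 57 bases that took 14.8%, 11.9%, 28.2%, 10.5% and 6.93% of the TPM in 5xFAD replicates 1 to 5 and 0.427% to 28.8% in control libraries. The highest library of each group was the same for both genes, 5xFAD replicate 3 and control replicate 6. The part of Gm23935 in the Lars2 value was not tested.

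The plaque genes can be set beside 2 comparisons that share no library with this one, though the limma fit shares its estimate of spread. The first is 5xFAD against control in Csf1r-Cre mice at 4 months, with 4 and 6 libraries. There Ccl6 was called, 1 gene of all tested (0.00536%, 2.78 ± 0.44, SE, adjusted p = 0.00258) and Cst7 was at 2.57 ± 0.51 (SE, adjusted p = 0.0934), at 2.30 to 19.5 TPM in 5xFAD with Csf1r-Cre and 0.298 to 1.83 TPM in Csf1r-Cre mice. Of the 35 plaque-associated genes 12 were higher at an unadjusted p under 0.05 (3.08% over all genes), and all 11 of the genes above were among them. Over all genes, 61 were higher in both comparisons, 32.3% of the 189 and 10.6% of the 574. For genes lower in both the number was 67, 4.27% of the 1570 and 17.4% of the 385 (2.06% of all genes tested). A test of the difference between the effects with and without Csf1r-Cre called 0 genes in limma, with 393 at an unadjusted p under 0.05 (2.11%).

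The second compares 12-month-old 5xFAD mice and controls without Csf1r-Cre, with 7 and 3 libraries. The strain entry of these 12-month 5xFAD libraries names Csf1r-cre while their titles do not, and the titles were followed. At 12 months 306 genes were called higher (1.64%) and 24 lower (0.129%), and 56 of the 306 were among the 189, which is 18.3% of the first and 29.6% of the second. Of the plaque-associated genes 23 of 35 were called higher at 12 months. Cst7 was at 32.5, 55.1 and 58.8 TPM as the lowest, median and highest 5xFAD libraries at 12 months, and 0.783, 0.841 and 1.40 TPM in the 3 control libraries.

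The difference of the 5xFAD effect between 12 and 4 months was tested directly. Its median over all genes was 0.314 on the log2 scale, and 0.0215 rescaled, so higher values at 12 months were the background as deposited. The difference was called for 15 genes (0.0804%), all with the larger effect at 12 months. Itgax was the only one of them whose groups did not overlap at 4 months, where Cd14 also had an unadjusted p under 0.05. The Itgax difference was 2.91 ± 0.59 on the log2 scale (SE, limma adjusted p = 0.0317). Atp6v0d2, a subunit of the vacuolar proton pump, was at 0 to 0.0854 TPM in 5xFAD and 0 to 0.105 TPM in control libraries at 4 months, and at 1.35 to 2.93 TPM in 5xFAD and 0 to 0.0530 TPM in control libraries at 12 months (difference 2.08 ± 0.32, SE, adjusted p = 0.00201). Of these 4 groups only the 12-month 5xFAD libraries reached the filter of 0.5 TPM. The direction of the Atp6v0d2 difference thus followed from how the gene entered the test.

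Mamdc2 was at 0.465 to 1.75 TPM in 5xFAD and 0.400 to 3.10 TPM in control libraries at 4 months, and at 5.70 to 8.96 TPM in 5xFAD and 0.219 to 0.972 TPM in control libraries at 12 months (difference 2.95 ± 0.48, SE, adjusted p = 0.00234). The class II gene H2-Aa was at 2.05 to 15.7 TPM in 5xFAD and 1.64 to 26.1 TPM in control libraries at 4 months, and at 22.2 to 107 TPM in 5xFAD and 0 to 12.2 TPM in control libraries at 12 months (difference 4.68 ± 0.95, SE, adjusted p = 0.0317). The others were Hpse, the heparan sulfate cleaving enzyme, Bcl3, Plau, Ly9, the cathepsins Ctse and Ctsh, the leukocyte phosphatase Ptprc, Il4ra, Cybb, a subunit of the phagocyte oxidase, Cd14 and Ccdc163. The difference was not called for Cst7 (2.04, limma adjusted p = 0.297) or for Ccl6 (0.39, limma adjusted p = 0.799), whose effect at 12 months was 3.09 ± 0.47 (SE). The count of 15 became 3, 4 and 6 without 5xFAD replicates 3, 1 and 2 and 36 without 5xFAD replicate 4, each at 4 months. It became 7 without control replicate 7 or 8, 23 without control replicate 6 and 24 without control replicate 1, and 1 with the replicate number as a block.

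**Figure D5:**
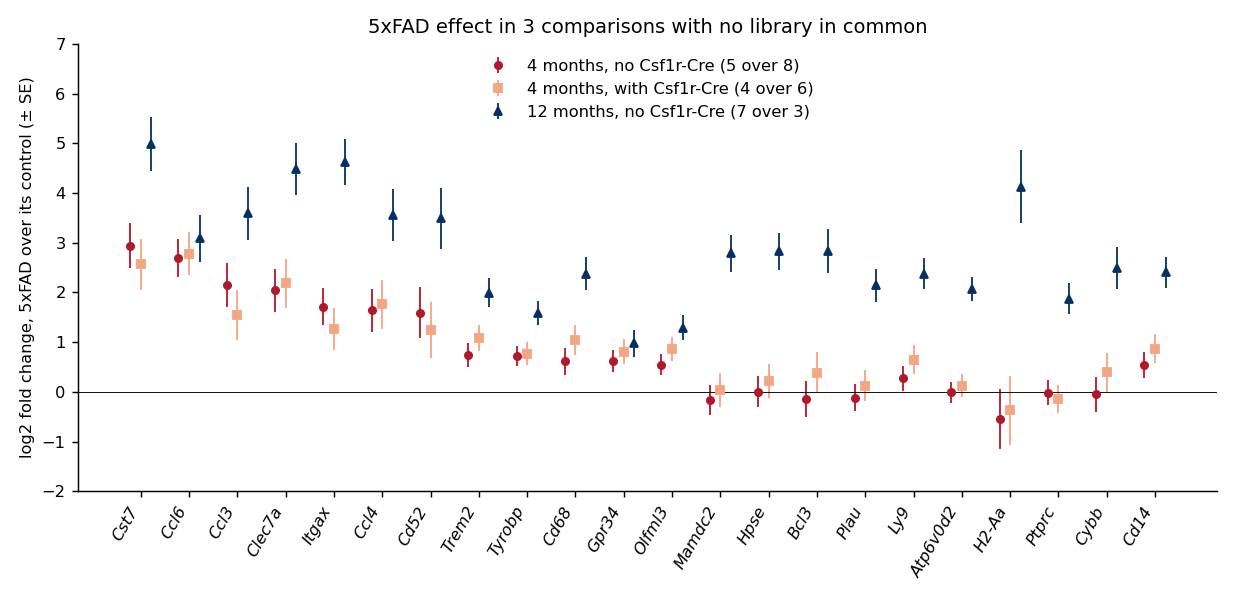
log2 fold change of 5xFAD over its control with SE, for plaque genes, homeostatic genes and genes whose effect differs between ages, at 4 months without Csf1r-Cre (red circles), at 4 months with Csf1r-Cre (orange squares) and at 12 months without Csf1r-Cre (blue triangles). Ccl6 lies at 2.70, 2.78 and 3.09, while Mamdc2, Hpse and Atp6v0d2 lie near 0 at 4 months and above 2 at 12 months.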

How the data were processed

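RNA from hippocampus, total RNA extracted from microdissected tissue and sequenced as paired ends per the labels' protocols, was analysed from 1 table of TPM values deposited by the authors with 54532 genes, mm10 coordinates and gene lengths. Per the submitters' processing notes the tools were STAR, featureCounts, edgeR and limma and the build was mm10; their versions were not given in the sources used here. TPM fix each library's total, so the share of an abundant gene such as Gm23935 is taken from the rest. With the listed gene length for 15330 genes and another whole-number length for the rest, all 33023 genes above 0 gave whole reads in every library (tolerance 0.02), which gave the depths; no test used these reads. Counting error limits genes with few reads, and reads may include copies of 1 molecule.

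Each comparison was a contrast in 1 limma model (version 3.58.1, R 4.3.3; eBayes with a trend) with a mean for each of the 8 groups over all 45 libraries, on log2(TPM + 0.5). The code was tested on simulated data in which 200 genes were changed. Of those changed by 1 on the log2 scale 49% were called, and of those changed by 2, 94%. The simulated noise was independent between genes, without trends across whole libraries. The libraries compared and the 37 gene lists were chosen with earlier results of these data known. Genes named were Apoe, App, Thy1 and Csf1r, every called gene, up to 6 members of a list with the smallest p, and the 10 highest and 10 lowest fold changes with an unadjusted p under 0.01 and at least 1 TPM on average in either group, without predicted and sex-linked genes. Some genes within this rule are left out for length or are not reported here, and Fcer1g, Cd180, Ch25h, Spp1, Dusp6 and the genes of the age difference were named after their values were seen. Alternatives changed the scaling, the pseudocount (0.1 or 1), the filter, the samples fitted, the weights and covariates, and left out each library in turn. Promoter sequences are from RefSeq on GRCm38.p6; 7 of 8 genes looked up had an entry.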

Additional observations from a re-analysis of the deposited data

Results flagged for a closer look

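In 122 groups of 5 or 8 values that were screened, 7 held a library far from the others, and chance flags about 5% of such groups. Among 5xFAD libraries, Ccl5 was lowest in replicate 3 at 0.669 TPM, and replicate 1 was lowest for Cxcl10 at 0.167 TPM and for Dusp6 at 18.6 TPM and highest for Tnnt1 at 6.74 TPM. Among control libraries, replicate 8 accounted for all 3, lowest for Ramp3 at 15.2 TPM and for Bsn at 8.20 TPM and highest for Spp1 at 53.5 TPM.

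The 5xFAD effect differed between 12 and 4 months for 15 genes, by a limma test of the difference. For Atp6v0d2 the direction followed from how the gene passed the filter, as given above. On the log2 scale the effect at 12 months exceeded that at 4 months by 4.68 for H2-Aa, 2.97 for Bcl3, 2.95 for Mamdc2, 2.91 for Itgax, 2.82 for Hpse, 2.55 for Cybb, 2.26 for Plau, 2.11 for Ly9, 2.08 for Atp6v0d2, 1.89 for Ptprc, 1.88 for Cd14, 1.87 for Il4ra, 1.86 for Ccdc163, 1.57 for Ctse and 1.49 for Ctsh.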

How the results depend on the processing

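For the 76 gene results, 1849 of 1992 values under 27 settings kept their direction and side of the threshold, 125 no longer passed, 11 newly passed and 7 reversed. Most of the 76 results were not called to begin with and so had no call to lose. The 125 losses all fell on called results, so the 1849 does not measure how stable the calls are. The reversals were Apoe at 0.0708 after median-of-ratios scaling and Csf1r, which ran from -0.11 to 0.20 with 1 library left out and was below 0 without control replicates 1 (-0.013), 5 (-0.029) or 6 (-0.10) or 5xFAD replicates 2 (-0.014), 4 (-0.026) or 5 (-0.11). At 4 months without Csf1r-Cre 2 genes were called, against 5 after median-of-ratios scaling or with the length trend removed, 4 without Gm23935, 0 on the 2 groups or the 4-month groups alone, 0 without 5xFAD replicates 3 and 4, and 2 to 7 with 1 library left out. The Csf1r-Cre comparison called 1 gene, 3 after median-of-ratios scaling, 2 with no filter, 2 on 4-month groups, and 12 with array weights. The 12-month comparison called 330, and 525 with array weights. The age difference called 15, 8 after median-of-ratios scaling, 3 with a pseudocount of 0.1, 3 with no filter, 147 with array weights, 9 with the length trend removed and 3 to 36 with 1 library left out. Unless stated above, the cause was not tested.

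Same-numbered 5xFAD and control libraries correlated at 0.009, 0.417, 0.217, -0.28 and -0.178, and only number 2 correlated best with its own. Differences across whole libraries, such as the trend on length, enter these values. They therefore cannot decide whether the numbers mark pairs, and the titles name none. With a replicate block the calls were 3 at 4 months, 2 with Csf1r-Cre, 220 at 12 months and 1 for the age difference. Low counts limit Cst7 in controls, at 0 to 12 reads.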
